A study of Mus musculus with 32 samples.

Results

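The livers of mice fed glipizide together with metformin were compared with those of mice fed the control diet without drug. The comparison took the 4 arrays titled GM and the 4 titled CON out of 32 in the study, and all probe sets other than the array's own controls: 12422 were present and 7357 were bright enough to be tested, standing for 5545 genes with a single symbol. All mice were male B6C3F1 hybrids, housed singly from 5 months of age and given 93 kcal per week of the AIN-93M control diet. At 20 months the GM mice were moved to the same diet with both drugs mixed into it for 8 weeks, while CON mice stayed on plain control diet. Mice of both groups were killed at 22 months after a 48 h fast, so every difference below is between fasted old livers, and the doses are not given in the labels used here. Each array held the liver RNA of 1 mouse. P-values of gene changes rest on the spread between mice within groups, pooled over all 32 arrays in 8 groups and not over the compared mice alone. Groups given metformin alone (MET, 4 arrays) or glipizide alone (GLIP, 4 arrays) for the same time and on the same diet serve as points of reference, and all arrays were MG-U74Av2 oligonucleotide arrays, which read each transcript with 1 or more sets of short probes.

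Glipizide is a sulfonylurea that closes the potassium channels of pancreatic beta cells and so releases insulin. Metformin is a biguanide that enters hepatocytes through organic cation transporters and lowers hepatic glucose output, with complex I of the respiratory chain and the kinase AMPK among its best known points of action. In liver, insulin acts through receptor substrates such as Irs2, represses the genes of gluconeogenesis and switches on those of fatty acid synthesis, largely through Srebf1.

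The arrays were of like quality with 2 exceptions. Correlations of log2 values ran from 0.958 to 0.972 among CON arrays and from 0.96 to 0.976 among GM arrays. GM 3 had raised acute phase transcripts, described with the acute phase genes, and CON 3 held skeletal muscle transcripts: its summed muscle marker intensity was 21150, against 2566 to 3366 in the other CON arrays and 2255 to 3118 in GM arrays. Hepatocyte markers were bright throughout, with sums over 7 genes of 148200 to 170500 in CON and 172200 to 206300 in GM, so that the ranges did not overlap, and no gene of any of the 12 marker lists passed the test. The part of these levels in the results was not tested. In whole liver, fewer cells of a type and less RNA per cell cannot be told apart.

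Between GM and CON, 114 of 7357 probe sets (1.55%) passed an adjusted p of 0.05 (limma, Benjamini-Hochberg), 64 of them higher in GM (0.87%) and 50 lower (0.68%). Stated per gene, 47 rose and 40 fell, 87 of 5545 (1.57%). Without GM 3 there were 88 calls (1.2%), 58 higher and 30 lower, and 62 of the 114 were among them. The split by direction depended on the scaling of the arrays: setting all array medians equal gave 432 calls (5.87%), 413 of them higher in GM, which is 95.6% against 56.1% on the deposited scale. For 772 probe sets (10.5%) no GM array overlapped a CON array, so a lack of overlap in 1 gene is common here. The largest rises and falls with all arrays were named only from genes without overlap, so for them that lack is no added support. Genes that rose included an insulin signalling adaptor, proteins that fold or move secretory proteins, and clotting factors. Genes that fell included a membrane peptidase, a glutathione transferase, catalase and a steroid dehydrogenase. Changes are differences of log2(intensity + 27) with their standard errors, which understate the change of dim genes, and arrays are listed in the order 1 to 4.

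Hip1r, whose protein links clathrin-coated vesicles to actin, was dim in CON and bright in GM. Its intensities were 50.9, 62.6, 60.7 and 74.9 in CON and 341.2, 397.9, 375 and 355.4 in GM. The groups did not overlap and GM 3 lay among the other GM arrays. The log2 difference was 2.15 ± 0.44 (SE, n = 4 and 4, adjusted p = 0.0154), and it was 2.14 without GM 3 (adjusted p = 0.0238). All CON values lay under the brightness limit of 94.2, so Hip1r was tested because of its levels in other groups, and no fold is given: the log2 difference was 2.55 with 1 added to each intensity and 1.56 with 94.2 added. Irs2, the docking protein that carries the signal of the insulin receptor to its kinases, read 51.5, 68.1, 30.6 and 23.9 in CON and 289.2, 242, 81.3 and 398.4 in GM. Every GM array exceeded every CON array, although GM 3 was close to the highest CON array. The difference was 1.87 ± 0.40 (adjusted p = 0.0191), and 2.27 without GM 3 (adjusted p = 0.00525). The CON values and GM 3 lay under 94.2 here too, and the difference was 2.42 with 1 added and 1.25 with 94.2 added. The Irs2 call ended without CON 4, GM 1 or GM 4, with adjusted p-values of 0.0618 to 0.0767.

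Bag3, a co-chaperone that hands misfolded clients of Hsp70 to autophagy, read 471.1, 438, 425.2 and 403 in CON and 961.8, 606.8, 693.9 and 994.9 in GM. The groups did not overlap and the rise was 0.84 ± 0.15 (adjusted p = 0.00845), while a second probe set of the gene showed 0.57 (adjusted p = 0.256). Mtf1, the zinc-sensing activator of the metallothionein genes, read 204, 97, 179.2 and 143.7 in CON and 292.8, 241.6, 359.8 and 322.9 in GM, a rise of 0.88 (adjusted p = 0.0297) that was 0.80 without GM 3 (adjusted p = 0.0687). Tbx3, a T-box transcription factor, went from 51.5 to 84.4 in CON to 122.2 to 154.6 in GM (0.77, adjusted p = 0.0191), and its CON values also lay under 94.2, with differences of 0.98 and 0.50 for the same added values. Tle1, a Groucho corepressor, overlapped because GM 3 read 237 inside the CON range of 179.7 to 252.6, while the other GM arrays read 538.9, 497.3 and 412.5. Its rise was 0.82 with GM 3 (adjusted p = 0.042) and 1.06 without it (adjusted p = 0.00598).

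Among enzymes and carriers, Slc27a4, a fatty acid transport protein with acyl-CoA synthetase activity, rose by 0.76 ± 0.15 (adjusted p = 0.0132). Its CON arrays read 191.5, 145.8, 110.3 and 104.8 and its GM arrays 273.2, 248, 231.6 and 234.1, with no overlap. Ugcg, the glucosylceramide synthase, rose by 0.57 (adjusted p = 0.0274), and B4galnt1, a ganglioside synthase that works further along the same glycolipid route, rose by 0.56 (adjusted p = 0.0167). Ugcg ranged from 243.2 to 361.6 in CON and from 377.9 to 564.1 in GM, and B4galnt1 from 564.5 to 725 in CON and from 804.8 to 1129.7 in GM. A dimmer second Ugcg probe set showed 0.18 (adjusted p = 0.699). Rabac1, a prenylated Rab acceptor of the Golgi, rose by 0.54 ± 0.09 (adjusted p = 0.00637), with 2267.2 to 3103.9 in CON and 3525.8 to 4207.7 in GM. Baz1b, a bromodomain protein of chromatin remodelling complexes, rose by 0.64 (adjusted p = 0.0154), and Dynll1, a dynein light chain, by 0.67 (adjusted p = 0.048; 0.129 without GM 3).

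Mme, the membrane peptidase neprilysin, showed the largest fall among the named genes. It read 452.5, 289, 421.3 and 287.2 in CON and 146.1, 106.1, 73.9 and 186.5 in GM. GM 3 was the lowest, yet all GM arrays lay below all CON arrays. The fall was -1.36 ± 0.21 (adjusted p = 0.00242), and -1.17 without GM 3 (adjusted p = 0.00598). In MET mice Mme read 401.8 to 537.8, and in GLIP mice 179 to 214.

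Gsta2, an alpha class glutathione S-transferase, read 3096.2, 2510.4, 3665 and 2655.6 in CON and 1577.4, 1428, 625 and 1664.4 in GM. The groups did not overlap, with GM 3 far below the other GM arrays. The fall of -1.23 ± 0.29 (adjusted p = 0.0297) became -0.91 without GM 3 (adjusted p = 0.0866). Catalase (Cat), the peroxisomal enzyme that breaks down hydrogen peroxide, read 7730.3, 7828.3, 6755.6 and 7410 in CON and 5193.5, 6578.9, 5074.4 and 5595.8 in GM. It fell by 0.41 on the log2 scale (adjusted p = 0.0387), and without GM 3 the adjusted p was 0.0845. Hsd3b3, a hydroxysteroid dehydrogenase of liver and kidney, read 760.2, 610.3, 672 and 818.1 in CON and 401.7, 368, 442.3 and 438.3 in GM, a fall of -0.75 (adjusted p = 0.0167) that was -0.78 without GM 3.

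Trnt1, the enzyme that adds the CCA end to transfer RNAs, read 832.3, 747.7, 864 and 780.6 in CON and 529.7, 417.7, 529.1 and 521.8 in GM. All GM arrays lay below all CON arrays, and the fall was -0.67 ± 0.14 (adjusted p = 0.0154). Fhit, a diadenosine polyphosphate hydrolase, read 209.9, 187, 179.8 and 171.7 in CON and 137, 51.3, 114.5 and 58.9 in GM, also without overlap (-0.93, adjusted p = 0.0494). Cacnb2, a calcium channel subunit, fell by 0.95 (adjusted p = 0.0277), from 203.9 to 296.5 in CON to 88.7 to 134.5 in GM. Ifih1, a cytosolic sensor of double-stranded RNA, fell by 0.70 (adjusted p = 0.042), Lgals1, a galectin, by 0.65 (adjusted p = 0.0424), and Lap3, a leucine aminopeptidase, by 0.73 (adjusted p = 0.048). Ssbp2, Ropn1l, Dram2 and Bex6 fell by 0.75, 0.72, 0.63 and 0.62. Of these genes Lgals1, Ssbp2, Dram2 and Bex6 missed the threshold without GM 3.

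**Figure D1:**
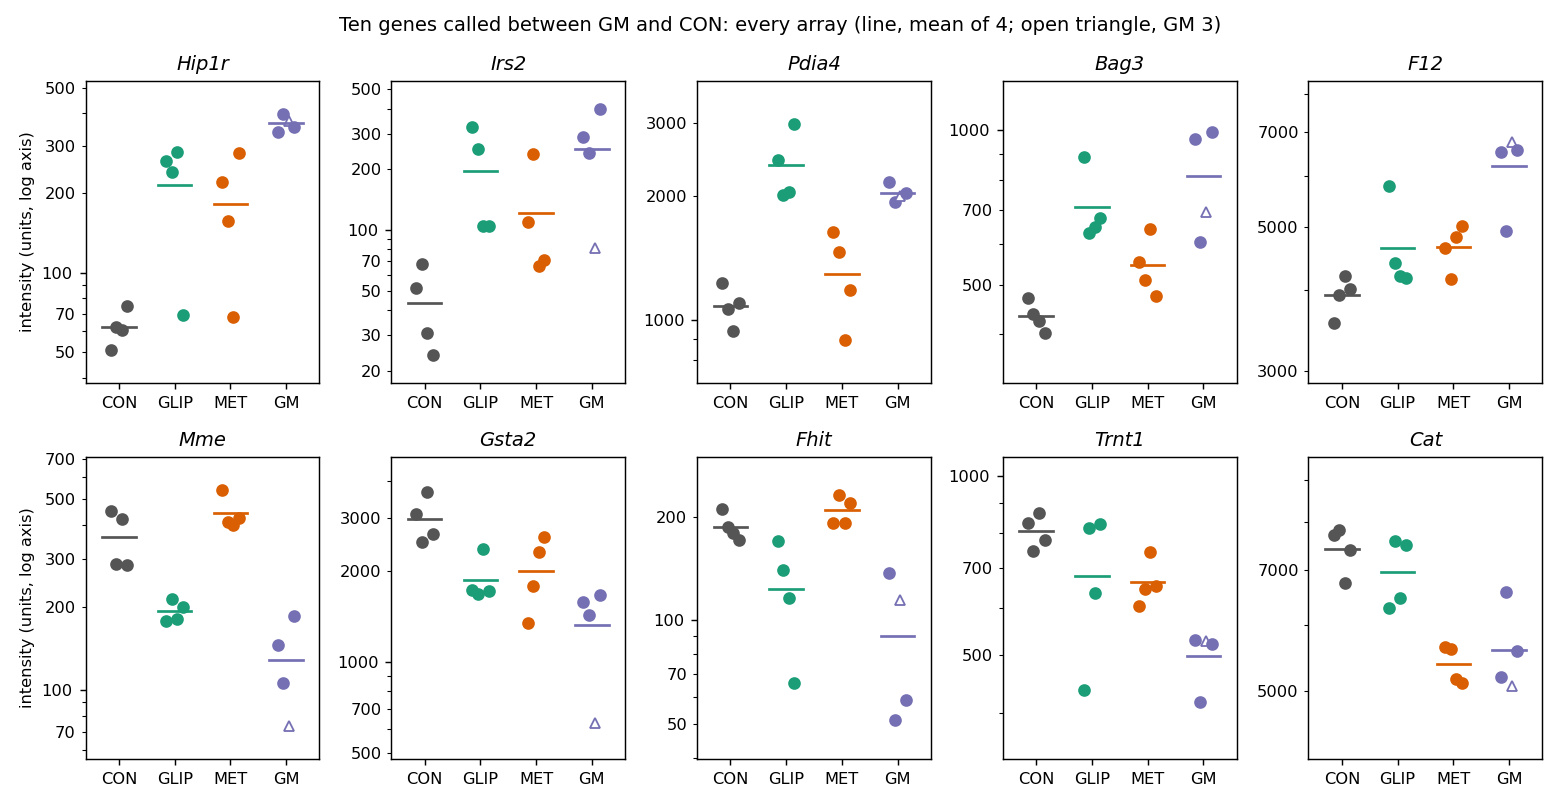
Intensity (log axis) of 10 genes that passed the test between GM and CON, in every array of CON, GLIP, MET and GM. Each point is 1 array, lines are means of 4, and the open triangle is GM 3. No GM array overlaps a CON array in these genes, but the largest rises and falls were named only from genes without overlap. GM 3 is the lowest GM array for Irs2, Mme, Gsta2 and Cat.

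Of the 36 called genes named here for GM against CON, all kept their direction under every alternative run, and these runs reuse the same arrays. But 7 stayed past the threshold whichever single array of the groups was left out: Hip1r, Bag3, F12, Rabac1, Vkorc1, Mme and Trnt1. Only 1, Hip1r, stayed past it in every run that tested it, the fit of the 2 groups alone included. Leaving out GM 2 or GM 3 ended 8 and 12 of the 36 calls. Leaving out CON 4, GM 4 or GM 1 ended 25, 24 and 21.

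Genes of insulin action and glucose output came next. Over all 5545 genes, 47 rose and 40 fell. Of 24 tested genes of insulin and IGF signalling, 1 rose, Irs2, whose control level is only bounded by the brightness limit, and none fell, with a median change of 0.20 against -0.04 over all 5545 genes. Akt1, the kinase downstream of Irs2, read 294.3 to 489.7 in CON and 501.8 to 662.8 in GM, a difference of 0.42 that missed the threshold (adjusted p = 0.10). Igf1, the circulating growth factor made by liver, was picked after its values were seen and read 5520.4 to 8562.6 in CON and 7541.3 to 9227.9 in GM (0.32, adjusted p = 0.155) and overlapped. Of 8 tested genes of glucose output, none passed the test in either direction (median 0.10). Pck1, which encodes the cytosolic PEPCK of gluconeogenesis, read 4561.5, 4264.3, 3542.3 and 4518.9 in CON and 4607, 4160.9, 4657.4 and 4166.7 in GM. These values overlapped fully, with a difference of 0.06 (adjusted p = 0.859; 95% interval -0.23 to 0.36). G6pc, the glucose-6-phosphatase that releases free glucose, read 2648.3, 2608.8, 3272.9 and 3783.5 in CON and 6141.4, 3461.6, 2415.5 and 2655.8 in GM. GM 1 stood above all others, and the difference of 0.17 (adjusted p = 0.784; 95% interval -0.36 to 0.70) turned to -0.11 without it. Slc37a4, the glucose-6-phosphate carrier of the same step, read above the CON range in GM 1, 3 and 4 but not in GM 2 (0.45, adjusted p = 0.107). Without GM 2 the difference was 0.61 (adjusted p = 0.0296), but leaving out the lowest GM array raises it. In another run the adjusted p of Slc37a4 reached 0.254. The list drawn up for targets and transporters of the drugs, with 13 tested genes, also holds Irs2, a gene of insulin signalling. Its only rise was that same Irs2 call, and none of its genes fell.

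Genes of lipid synthesis showed no call against CON: none of 17 lipogenic genes (median -0.01, and 0.13 with equal medians) and none of 15 cholesterol synthesis genes (median 0.10) passed the test. Scd1, the delta-9 desaturase, read 24666.3, 24059.7, 27850.7 and 22165.6 in CON and 19442, 16951.8, 5979.1 and 15734.2 in GM. The groups did not overlap and GM 3 was lowest, but the difference of -0.89 missed the threshold (adjusted p = 0.0925), and it was -0.51 without GM 3. A second, about equally bright Scd1 probe set differed by -0.26 (adjusted p = 0.388). Srebf1 read 2331.3 to 2869.4 in CON and 1915.4 to 2180.7 in GM, also without overlap (-0.33, adjusted p = 0.17).

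Genes that fold, move and degrade proteins gave a few calls, all of them rises, where 47 of all 5545 genes rose and 40 fell. Of 25 tested chaperones and translocation factors of the endoplasmic reticulum, 2 rose, Pdia4 and Sec61b, and none fell (median 0.19). Pdia4, a protein disulfide isomerase, read 1226.7, 1060.1, 937.5 and 1098.5 in CON and 2159.2, 1928.7, 1997.7 and 2035.5 in GM, 0.90 ± 0.21 higher (adjusted p = 0.0274). No array overlapped and GM 3 lay among the other GM arrays, but the call ended without CON 3, CON 4, GM 1 or GM 4 (adjusted p = 0.0615 to 0.0721). Sec61b, a subunit of the channel through which new proteins enter the endoplasmic reticulum, read 578.5, 606.3, 572.8 and 569.6 in CON and 902.5, 881, 1705.3 and 911.2 in GM. GM 3 stood well above the rest, and the rise of 0.83 (adjusted p = 0.0274) became 0.60 without it (adjusted p = 0.0734). Creld2 (0.69, adjusted p = 0.0977) and Dnajb11 (0.48, adjusted p = 0.146) missed the threshold, and so did the probe set of Dnajc3 with the highest level, though a second Dnajc3 probe set rose by 0.98 (adjusted p = 0.00883).

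In the cytosol, 1 of 28 heat shock genes rose, Bag3, with a median of 0.14, against 47 of all 5545 genes. Hsph1 read 614.8 to 889.2 in CON and 1233.4 to 1407.8 in GM, without overlap, but at 0.90 it missed the threshold (adjusted p = 0.0701). Hspa1b, an inducible Hsp70, read 494.1, 299, 398.6 and 327 in CON and 1196.1, 601.4, 443.3 and 1210.7 in GM, overlapping through GM 3 (1.03, adjusted p = 0.151). Of 30 proteasome genes, 1 rose, Psmd4, the ubiquitin receptor of the regulatory particle (0.44, adjusted p = 0.0344), while 27 of the 30 had a positive difference (median 0.17, and 0.17 without GM 3) against 2340 of all 5545. Of 25 ribosomal protein genes, 1 rose, Rpl19 (0.32, adjusted p = 0.0364), although a dimmer second probe set showed -0.19 (adjusted p = 0.882).

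Secreted clotting proteins gave 2 calls among 26 genes of complement and coagulation, both rises (median 0.15, and 0.06 without GM 3). Over all 5545 genes 47 rose. F12, coagulation factor XII, read 3563.7, 3931.9, 4201.8 and 4010.9 in CON and 6520.5, 4931.1, 6765.7 and 6569.8 in GM. GM 2 was lower than the other GM arrays but above every CON array, and the rise was 0.65 ± 0.10 (adjusted p = 0.00242; 0.60 without GM 3). F2, prothrombin, read 7703.2 to 9131.7 in CON and 10801.6 to 12503.4 in GM, a rise of 0.42 (adjusted p = 0.0282), and its adjusted p was 0.0687 without GM 3. Vkorc1, the reductase that recycles vitamin K for the carboxylation of prothrombin, was picked after its values were seen and read 6109.1, 6005.2, 5967.6 and 6034.5 in CON against 8628.7, 7587.9, 7657.3 and 8103.7 in GM. The groups were far apart beside their spread (0.40 ± 0.07, adjusted p = 0.00317). Apoh and Serpinc1, a phospholipid-binding plasma protein and antithrombin, passed the test in the fit without GM 3, at 0.30 (adjusted p = 0.0238) and 0.26 (adjusted p = 0.0295). Among 18 apolipoproteins and related genes none passed with all arrays (median 0.07, and -0.01 after quantile normalization), 2 rose without GM 3 (Apoh and Apoc1, the latter by 0.31, adjusted p = 0.0384) and 7 rose with equal medians.

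Enzymes of detoxification gave a single call, a fall, where 40 of all 5545 genes fell and 47 rose. Of 26 conjugating enzymes, 1 fell, Gsta2, and none rose (median -0.20), and of 21 cytochrome P450 genes none passed the test (median -0.12, and 0.02 with equal medians). Cyp2b10, a P450 induced through the receptor CAR, read 796, 424.6, 1133.4 and 767.7 in CON and 503.9, 419.2, 291.3 and 416.8 in GM. These overlapped, and the difference of -0.84 missed the threshold (adjusted p = 0.0593). Without CON 2 the difference was -1.09 (adjusted p = 0.0241), but leaving out the lowest CON array widens it. In another run the adjusted p of Cyp2b10 reached 0.314. Nat1, an N-acetyltransferase, passed the test in the fit without GM 3 (-0.83, adjusted p = 0.0352). In the respiratory chain, 1 of 28 genes of complex I fell, Ndufs1, and of 32 genes of complexes II to V 1 rose, Atp5e, and 1 fell, Cox6c, with medians of -0.01 for both lists that turned to 0.13 with equal medians. Ndufs1, the largest complex I subunit, read 1900 to 2155.6 in CON and 1225.9 to 1737.1 in GM (-0.36, adjusted p = 0.0494; 0.14 without GM 3). Atp5e, the epsilon subunit of ATP synthase, read 1915.2, 1677.2, 2376.2 and 1704.5 in CON and 3473.7, 2679.1, 2649.3 and 3008.2 in GM (0.62, adjusted p = 0.0228), and Cox6c fell by 0.32 (adjusted p = 0.0494; 0.124 without GM 3).

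None of 30 tested acute phase genes passed the test against CON, and GM 3 stood apart in them. It was the highest of the 8 arrays for 25 of the 30, against 701 of all 5545 genes (12.6%). GM 3 had been set apart because of these same transcripts, so the count describes the array and is no separate support. The median acute phase gene stood 1.19 above the CON mean in GM 3 and -0.03, 0.07 and 0.16 from it in GM 1, 2 and 4. Saa2, a serum amyloid A protein, read 1468.4, 1136.9, 1051.6 and 1501.8 in CON and 1218.2, 1137.5, 29475.8 and 5814 in GM. Orm2, an alpha-1-acid glycoprotein, read 281.9 to 577.7 in CON and 381.9, 313.9, 15989.4 and 902.2 in GM. For both genes GM 1 and GM 2 lay within the CON range and GM 4 stood above it. Lcn2, an iron-siderophore carrier, read 10118.1 in GM 3 and 355.3 to 793.3 in the other GM arrays, against 388.1 to 904.3 in CON. The median difference of the list was 0.32 with GM 3 and 0.11 without it. Saa3 read 234.8, 275.6, 200.4 and 209.3 in CON and 383, 575.5, 712.6 and 661.1 in GM. It was 1 of 5 among the 30 acute phase genes in which every GM array lay above every CON array, with Apcs, Hp, Hpx and Itih3. Over all 5545 genes the groups did not overlap, in either direction, for 574. The Saa3 difference of 1.22 missed the threshold (adjusted p = 0.0668; 1.12 and 0.136 without GM 3).

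**Figure D2:**
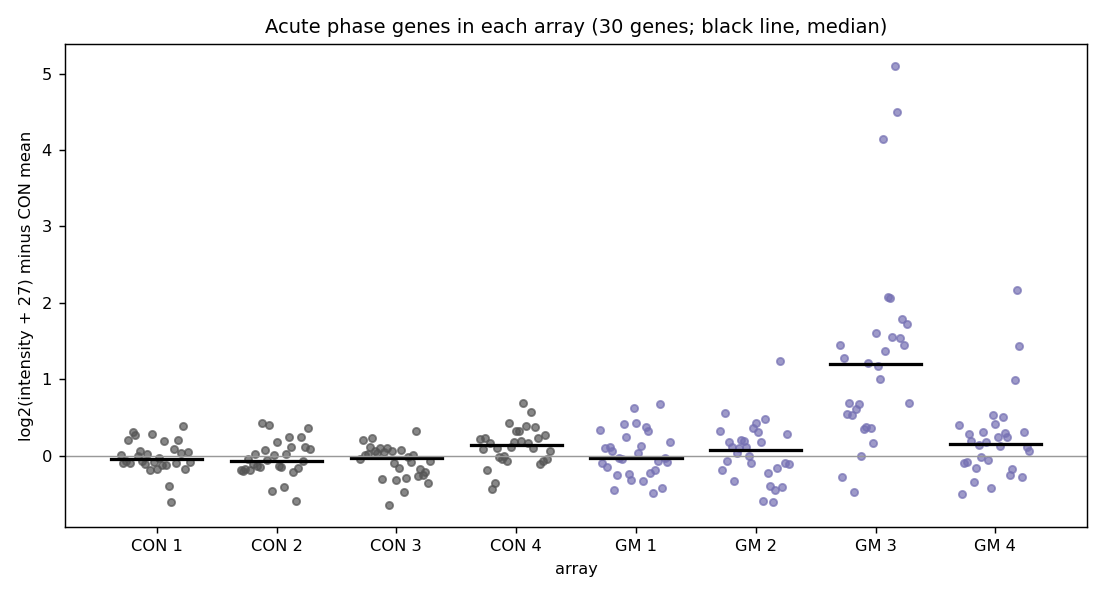
Acute phase genes in each CON and GM array, as log2(intensity + 27) minus the CON mean of the gene. Each point is 1 of 30 genes and the black line is the array's median, which is 1.19 in GM 3 and between -0.03 and 0.16 in the other GM arrays.

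Of 21 interferon-induced genes none passed the test against CON, and 3 had a positive difference (median -0.23), against 2340 of all 5545 genes. On the CON scale the list's median ran from -0.35 (CON 3) to 0.27 (CON 2) in CON arrays. It ran from -0.27 to -0.16 in GM arrays, inside the CON range. Ifit1 read 418.6, 576.4, 298.6 and 492.9 in CON and 262.3, 178.8, 172.8 and 237.9 in GM, without overlap (-0.96, adjusted p = 0.132). Irgm1, a GTPase of interferon responses, read 401 to 658.2 in CON and 343.2 to 365.3 in GM (-0.53, adjusted p = 0.0938).

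**Figure D3:**
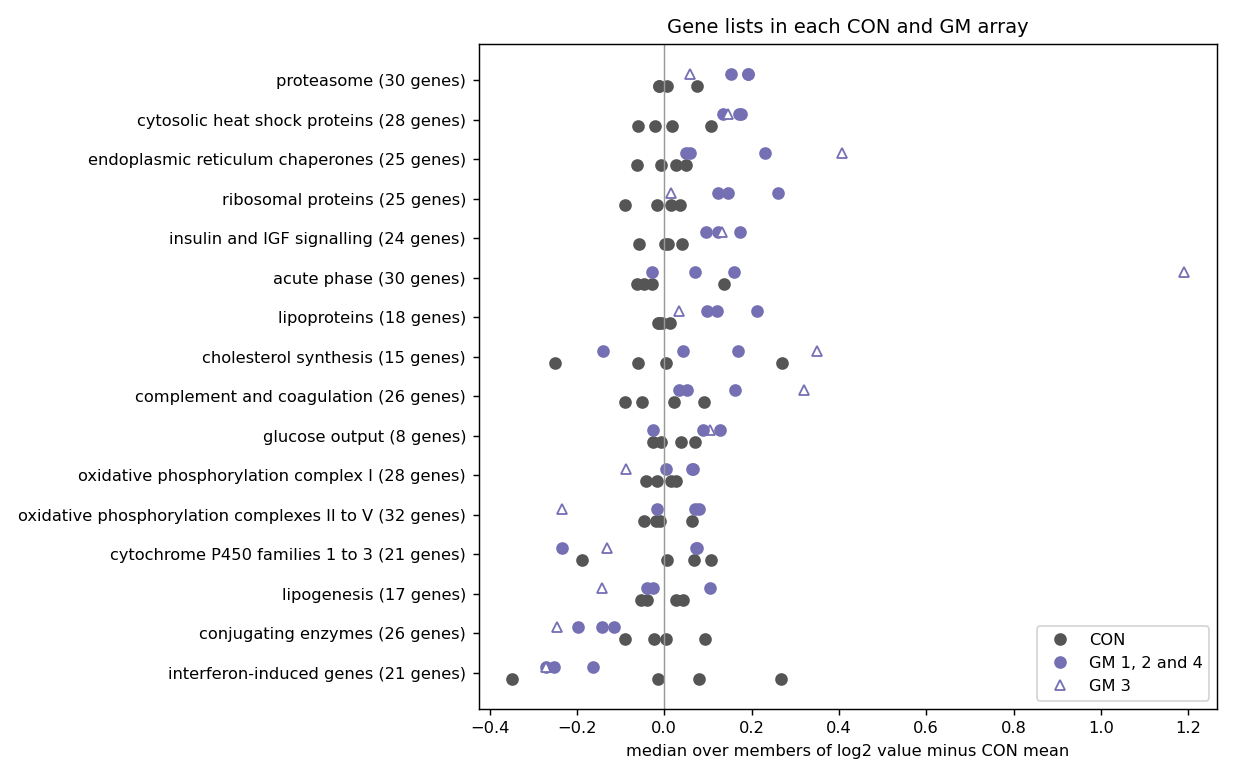
Median over the tested members of 16 gene lists of the log2 value minus the CON mean, for each CON array (grey) and each GM array (purple, GM 3 as an open triangle). Acute phase genes spread furthest because of GM 3. All 4 GM arrays lie right of 0, the CON mean, in 7 lists (chaperones of the endoplasmic reticulum, heat shock, proteasome, ribosomal, coagulation, insulin signalling and lipoprotein genes). They lie left of 0 in 2 (interferon-induced genes and conjugating enzymes). Arrays of the 2 groups overlap in the proteasome, ribosomal, coagulation and interferon-induced lists, so the side of 0 alone does not separate the groups there.

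Glipizide plus metformin was next compared with metformin alone. The labels used here give no doses, so the presence of glipizide and a different metformin dose cannot be told apart in this contrast. Here 193 of 7357 probe sets (2.62%) passed the test, 96 higher in GM (1.3%) and 97 lower (1.32%), and 94 (1.28%) did so without GM 3, 45 of them higher (0.612%). The arrays of the 2 groups did not overlap for 630 probe sets (8.56%). Chaperones of the endoplasmic reticulum were higher in GM for 7 of 25 genes and lower for none, with a median difference of 0.33 against -0.01 over all genes, of which 78 of 5545 were higher. Without GM 3, 3 of the 25 were higher, Creld2, Dnajb11 and Dnajc3, and without MET 2 the count was 4. Creld2, a secreted factor induced by protein folding stress, read 255.1, 234.8, 367.3 and 277.3 in MET and 581.8, 507.6, 959 and 646.7 in GM, a difference of 1.15 ± 0.22 (adjusted p = 0.00558). Hspa5, the Hsp70 of the endoplasmic reticulum, read 4242.6, 3729.6, 4412.4 and 3713.7 in MET and 5174.6, 6110.6, 8322.8 and 6691.8 in GM, a difference of 0.69 (adjusted p = 0.0113; 0.0554 without GM 3). Neither gene overlapped between the groups, and GM 3 was the highest GM array for both. Dnajb11 and Dnajc3, J-domain partners of Hspa5, were higher by 0.88 (adjusted p = 0.00659) and 0.76 (adjusted p = 0.00558). Manf (0.89, adjusted p = 0.0156), Pdia3 (0.79, adjusted p = 0.0307) and Hsp90b1 (0.36, adjusted p = 0.0444) passed with all arrays but not without GM 3. On the CON scale the median member of the list stood at 0.05, 0.06, 0.41 and 0.23 in GM 1 to 4, between -0.20 and -0.10 in MET and between 0.04 and 0.28 in GLIP.

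Promoters of 4 of these genes are printed because each holds the letters of a known element, the endoplasmic reticulum stress response element that recruits NF-Y and the unfolded protein response factor ATF6. The letters searched were CCAAT, then any 9 bases, then CCACG, on both strands, in the 250 bases before each transcription start of RefSeq on build GRCm38.p6. They occurred in 37 of 32851 promoters (0.113%), and by gene in 35 of 27025 (0.13%). Of the 22 chaperone genes with a promoter among these, 6 held the letters (27.3%). Of the 6 such genes that were higher in GM than in MET, 4 held them. Canx and Pdia6, which were not called higher in GM than in MET, held them too. The element is known from genes of this kind, and these shares were not tested. The 4 sequences follow, 5′ to 3′ on the strand of the gene, with the match in capitals: Creld2 (chr15:88819396-88819645, plus strand, opposite strand match 126 to 108 bases before the start), Dnajc3 (chr14:118937682-118937931, plus strand, 105 to 87), Hsp90b1 (chr10:86705445-86705694, minus strand, 212 to 194 and, on the opposite strand, 107 to 89) and Hspa5 (chr2:34771840-34772089, plus strand, 65 to 47).
Creld2: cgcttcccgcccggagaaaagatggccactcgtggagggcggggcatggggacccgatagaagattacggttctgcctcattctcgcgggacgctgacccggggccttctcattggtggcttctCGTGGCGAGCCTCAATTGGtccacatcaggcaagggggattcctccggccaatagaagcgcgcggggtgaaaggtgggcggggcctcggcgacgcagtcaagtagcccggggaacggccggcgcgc
Dnajc3: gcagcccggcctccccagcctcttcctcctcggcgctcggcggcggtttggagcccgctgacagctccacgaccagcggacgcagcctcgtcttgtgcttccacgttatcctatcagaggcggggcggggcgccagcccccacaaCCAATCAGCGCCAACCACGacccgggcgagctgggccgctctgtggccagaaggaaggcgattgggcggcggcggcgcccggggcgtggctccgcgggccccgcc
Hsp90b1: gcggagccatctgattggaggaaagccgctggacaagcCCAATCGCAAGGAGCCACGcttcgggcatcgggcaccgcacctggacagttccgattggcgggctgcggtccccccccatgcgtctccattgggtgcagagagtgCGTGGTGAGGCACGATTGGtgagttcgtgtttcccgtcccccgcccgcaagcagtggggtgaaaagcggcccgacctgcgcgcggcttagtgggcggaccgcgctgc
Hspa5: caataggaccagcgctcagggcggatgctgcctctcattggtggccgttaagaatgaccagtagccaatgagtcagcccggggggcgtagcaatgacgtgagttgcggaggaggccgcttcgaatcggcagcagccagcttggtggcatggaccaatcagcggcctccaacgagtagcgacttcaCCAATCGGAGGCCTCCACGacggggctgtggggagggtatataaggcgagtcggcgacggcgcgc
The letters were not in these windows of Dnajb11, Pdia3, Pdia4 or Sec61b. A match describes the sequence and was not tested as a site in these livers.

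Proteasome genes were higher in GM than in MET for 7 of 30 (median 0.23), against 78 of all 5545 genes. The count was 6 without GM 3, 4 without MET 2 and 3 without GM 2 or GM 4. Psmd4 read 1088.4, 897.2, 1058.5 and 1156.7 in MET and 1486.5, 1782.6, 1245 and 1679.1 in GM (0.54, adjusted p = 0.00659), and Psma7, a subunit of the core ring picked after its values were seen, differed by 0.45 (adjusted p = 0.00964). In both genes the groups did not overlap. The list's median on the CON scale was 0.15, 0.19, 0.06 and 0.19 in GM 1 to 4 and -0.20 to -0.04 in MET.

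Genes of fatty acid synthesis were lower in GM than in MET for 7 of 17 (median -0.32) and of cholesterol synthesis for 2 of 15 (median -0.48). Without GM 3 the counts were 3 and 2. Over all genes 78 of 5545 were lower with all arrays. The lipogenic count was 4 without GM 2, GM 4, MET 1 or MET 4, and the cholesterol count was 1 without GM 1, MET 2 or MET 4 and 0 without GM 2 or MET 1. Srebf1, the transcription factor that drives lipogenesis under insulin, read 4995.1, 3660.1, 3246.2 and 3707.8 in MET and 2180.7, 1927.4, 2006.2 and 1915.4 in GM. The groups were well separated, at -0.93 ± 0.13 (adjusted p = 0.000298), and GM 3 lay among the others. Thrsp, a regulator of lipogenic enzymes, read 5094.3, 2574.3, 619.6 and 2168.1 in MET and 504.7, 320.2, 855.9 and 641.1 in GM, overlapping through MET 3 (-1.86, adjusted p = 0.00659). Fads1, the delta-5 desaturase, was lower by 0.80 on the log2 scale (adjusted p = 0.0092), Elovl6, a fatty acid elongase, by 1.24 (adjusted p = 0.0307; 0.0683 without GM 3), Scd1 by 1.13 (adjusted p = 0.0252; 0.113 without GM 3) and Gpam, the first enzyme of glycerolipid synthesis, by 0.51 (adjusted p = 0.0222; 0.0574 without GM 3). The second Scd1 probe set differed by -0.52 between GM and MET and missed the threshold (adjusted p = 0.0648). Nsdhl and Fdft1, 2 enzymes of cholesterol synthesis picked after their values were seen, were lower by 0.91 (adjusted p = 0.0201) and 0.48 (adjusted p = 0.0365). Dimmer Nsdhl probe sets differed by -0.71 (adjusted p = 0.178) and -0.72 (adjusted p = 0.115) and missed the threshold. Without GM 3 the Fdft1 call ended (adjusted p = 0.0997), and the 2 cholesterol genes called were Nsdhl and Dhcr7 (-1.08, adjusted p = 0.0458). Against CON the same lists stood differently in the 2 groups: in MET 6 lipogenic genes (median 0.38) and 5 cholesterol genes (median 0.65) were called higher, against 135 of all 7357 probe sets (1.83%), and in GM none of either. Both of those contrasts use the same 4 CON arrays.

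**Figure D4:**
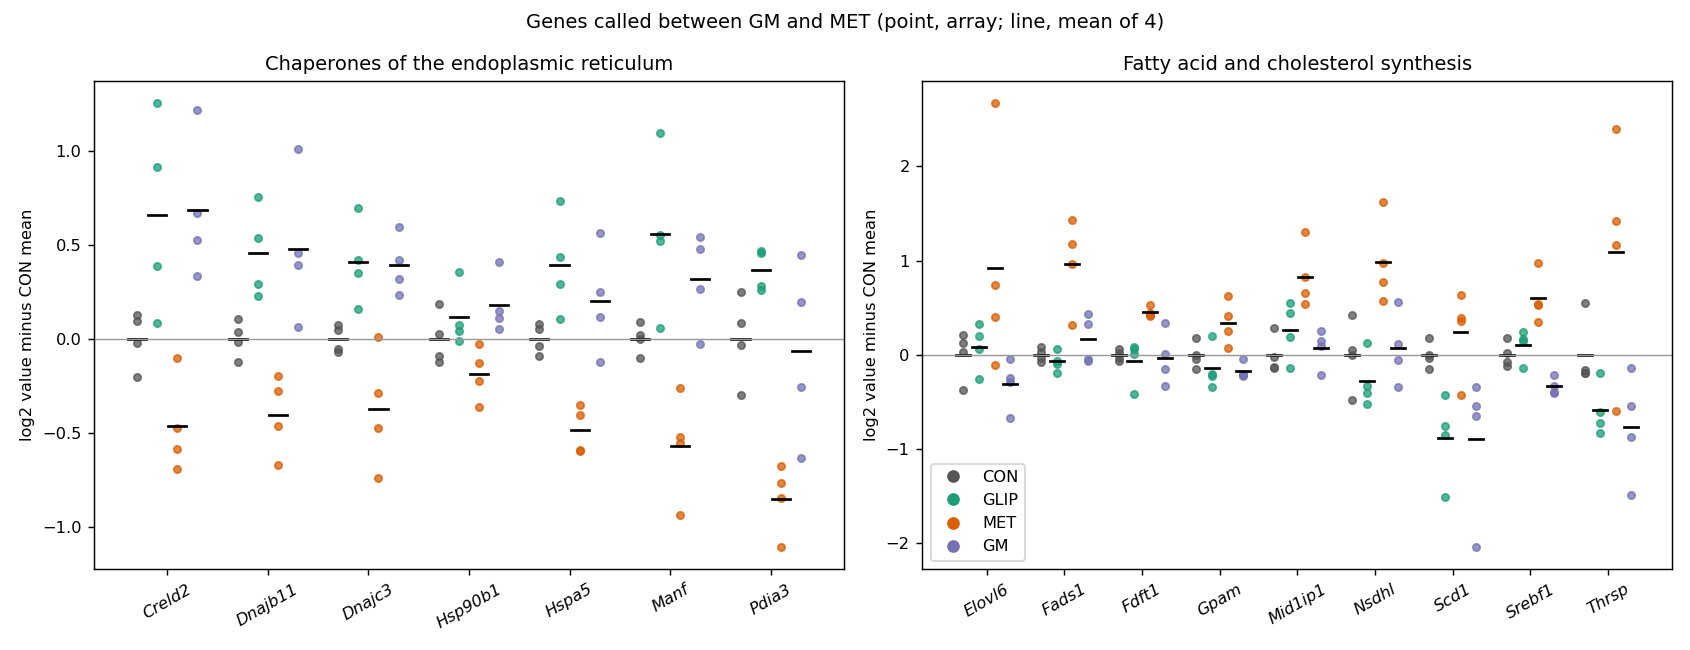
Genes of the endoplasmic reticulum (left) and of fatty acid and cholesterol synthesis (right) that passed the test between GM and MET, as log2(intensity + 27) minus the CON mean in each array of CON, GLIP, MET and GM. Points are arrays and lines are means of 4: the GM means lie above the MET means for all 7 genes on the left and below them for all 9 on the right.

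Outside these lists, Mme was again the clearest fall, with 537.8, 410.4, 401.8 and 424.3 in MET against 73.9 to 186.5 in GM (-1.65 ± 0.21, adjusted p = 0.000125). Cyp2b13 read 2358.1, 4104.9, 891.3 and 1901.9 in MET and 608, 138.6, 148.8 and 216.8 in GM (-2.98, adjusted p = 0.0066), and Cyp2b10 was lower by 1.07 on the log2 scale (adjusted p = 0.0132; 0.0557 without GM 3). Pltp, which transfers phospholipids between lipoproteins, was lower by 1.25 (adjusted p = 0.00453), and Pold2, a subunit of DNA polymerase delta, by 1.30 (adjusted p = 0.00558). Saa3 read 135.6, 83.5, 301.1 and 61.2 in MET, below every GM array, and was higher in GM by 1.98 (adjusted p = 0.00375; 1.88 without GM 3). It was 1 of 3 acute phase genes called higher, with Lrg1 and Fgb, neither of which passed without GM 3. Interferon-induced genes were higher in GM than in MET for 2 of 21, Irgm1 (0.64, adjusted p = 0.0365) and Iigp1 (0.69, adjusted p = 0.0321), and for none without GM 1, GM 3, GM 4, MET 2 or MET 3. In MET against CON, 10 of the 21 were called lower, against 172 of all 7357 probe sets (2.34%). Abcc9, a sulfonylurea receptor subunit of muscle-type potassium channels, read 171.1 to 198.9 in MET and 68.5 to 140.8 in GM (-0.69, adjusted p = 0.0444; 0.165 without GM 3). Hao2, Ada and Car2 were lower by 1.53, 1.42 and 1.26 on the log2 scale, Mid1ip1 by 0.76 and Pklr by 0.49. Tle1 and Arf6 were higher by 0.81 and 0.76, Psmd11 by 0.56, F12 by 0.40 and Gcgr, the glucagon receptor, by 0.32. Of these 10 genes, Tle1 and Psmd11 passed the test without GM 3. A dimmer second Arf6 probe set differed by 0.12 (adjusted p = 0.845). Dimmer Psmd11 probe sets differed by -0.17 (adjusted p = 0.561) and 0.46 (adjusted p = 0.0416). Of the leading genes against CON, Hip1r (1.04, adjusted p = 0.20), Irs2 (0.89, adjusted p = 0.24) and Pdia4 (0.68, adjusted p = 0.0708) were not called between GM and MET. Of the 38 called genes named for this contrast, 13 stayed past the threshold whichever single array was left out, and leaving out GM 3 ended 22. Past the threshold in every alternative run were 0 of the 38.

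The comparison with glipizide alone is likewise limited by the doses, which are not given. In it 0 of 7357 probe sets (0%) passed the test in limma. At an unadjusted p of 0.05 there were 675, and the arrays of the groups did not overlap for 371 (5.04%). The 5 genes with the smallest p all had an adjusted p of 0.32. F12 read 5779.2, 4395.8, 4208.8 and 4172.7 in GLIP, overlapping GM, and differed by 0.42 (95% interval 0.21 to 0.63). Without GM 2, the lowest GM array for F12, the difference was 0.52 and passed the test (adjusted p = 0.0448). Leaving out the lowest array raises the difference, so this is no added support, and the adjusted p reached 0.756 in another run. Ppdpf differed by 0.45 (0.22 to 0.69), Rdx, which ties actin to the membrane, by -0.42 (-0.63 to -0.22), Rnf2, a Polycomb ubiquitin ligase, by -1.46 (-2.18 to -0.74), and Sec62, a translocation factor of the endoplasmic reticulum, by -0.66 (-0.97 to -0.36). These intervals are per gene and not adjusted.

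For the leading genes, the intervals of GM minus GLIP show what these 8 arrays leave undecided. Mme read 179, 214, 181.3 and 200.5 in GLIP, and the difference was -0.56 (95% interval -0.997 to -0.13, adjusted p = 0.478). Hip1r read 264.9, 239.2, 284.8 and 69.2 in GLIP, and the difference was 0.84 (-0.05 to 1.73). Irs2 read 326.8, 253.3, 104.4 and 104.8 in GLIP and overlapped GM, at 0.30 (-0.53 to 1.12). Pdia4 read 2442.5, 2011.4, 2046.8 and 2979 in GLIP, overlapping the GM range (-0.20, -0.62 to 0.22). Gsta2 read 1681.2 to 2372.9 in GLIP, above every GM array (-0.57, -1.17 to 0.02). The intervals of Hip1r, Irs2 and Gsta2 hold both 0 and changes of more than 1 on the log2 scale, so neither likeness nor difference was shown. For orientation, 10 probe sets (0.136%) were called in GLIP against CON and 307 (4.17%) in MET against CON, and these contrasts share the CON arrays with GM against CON.

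Brightness and scaling bear on all counts against CON. The median intensity over all probe sets was 148.3 ± 4.48 in GM (SD, n = 4) and 163.9 ± 1.33 in CON, a difference of -15.66 (exact permutation test, 2-sided p = 0.0286, the smallest that 4 against 4 can give). The median change between GM and CON ran from -0.16 in the dimmest 20% of tested probe sets to 0.04 in the brightest 20%, and 42 of the 64 higher calls lay in the latter. Over all tested probe sets the median was -0.05 on the deposited scale and 0.09 with equal medians, so a change is read against that shift. With quantile normalization, which makes all arrays' distributions alike, 92 probe sets were called, 55 higher and 37 lower. With equal medians, where 5.61% of all probe sets were called higher, the ribosomal list held 12 rises, the proteasome list 8, and the lists of insulin signalling, coagulation, lipoproteins and translation factors 7 each.

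**Figure D5:**
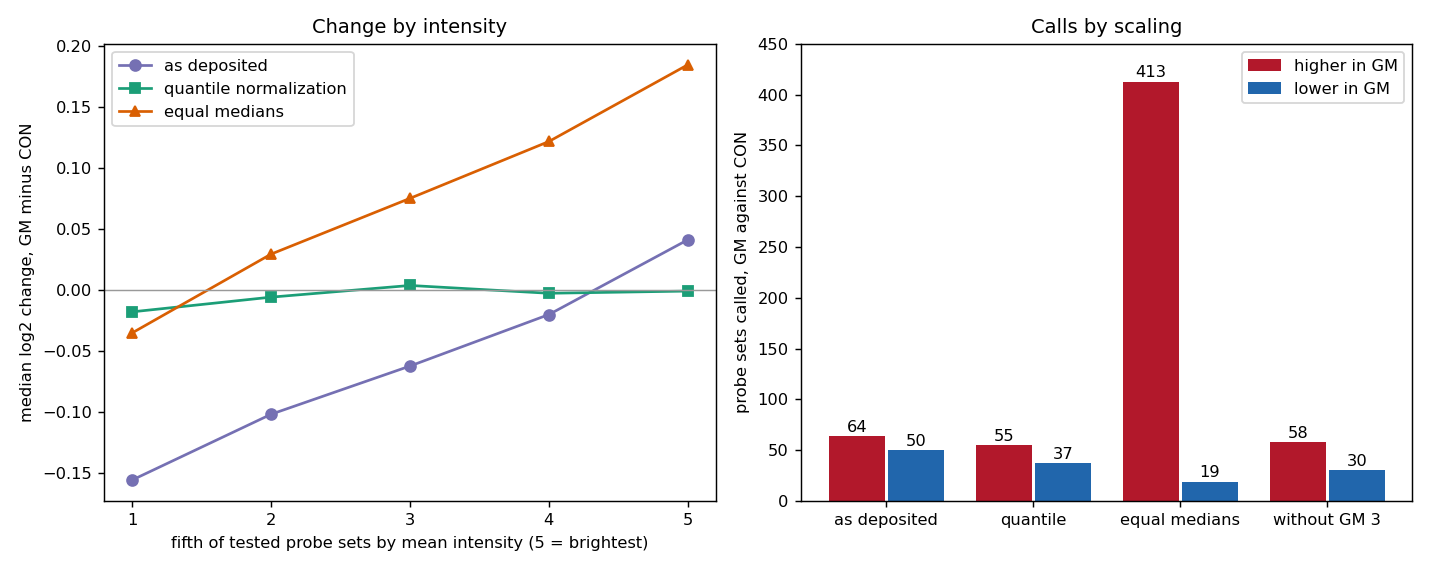
Left, median log2 change of GM minus CON in each 20% of the tested probe sets by mean intensity (class 5 is the brightest), on the deposited scale, after quantile normalization and with equal array medians. Right, probe sets called higher and lower in GM under each scaling and without GM 3: 64 and 50, 55 and 37, 413 and 19, and 58 and 30.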

How the data were processed

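The authors deposited 1 linear intensity per probe set and array, and each column had a 2% trimmed mean between 500.4 and 500.5, so the arrays had been scaled to a common level before deposit. The software and scan batches are not given in the sources used here. Intensities (0.1 to 47323.7) were raised by 27, their 20th percentile, and taken to log2. Of 12488 probe sets 66 were controls, and probe sets with a mean under the 40th percentile (94.2) were left out. Probe set names came from the platform table, in which 10833 had 1 symbol, 396 several and 1193 none. For a gene with several probe sets the brightest was used. One limma 3.58.1 fit in R 4.3.3 (eBayes with trend) covered 32 arrays in 8 groups, leaving 24 residual degrees of freedom, and was tested on simulated data. Adjusted p is by Benjamini-Hochberg over all 7357 probe sets, with a threshold of 0.05.

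The genes named were the 15 largest rises and 15 largest falls without overlap, the 10 largest each way without GM 3 and against MET, and the leading members of each list. Vkorc1, Igf1, Hspa5, Hsp90b1, Psma7, Psmd11, Pklr, Nsdhl and Fdft1 were picked after their values were seen. The members and gene lists were chosen with earlier results of these data known. Alternatives were another scaling, added value, filter, probe set rule or set of arrays.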

Additional observations from a re-analysis of the deposited data

Results flagged for a closer look

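In 16 of 194 sets of 4 arrays examined for the named genes (8.25%), 1 array stood apart by Dixon's criterion, which chance alone meets in about 1 of 20. GM 3 was that array in 4 of them and a CON array in 6. GM 3 was highest for Sec61b (1705.3, next 911.2), Mt2 (20165.5, next 4086.7) and Itih3 (25730.5, next 11353.3), and lowest for Gsta2 (625, next 1428). GM 2 was lowest for F12 (4931.1), Trnt1 (417.7) and Slc37a4 (1757.8). GM 1 was highest for Ropn1l (169.8) and Gpam (2027.1), and GM 4 for Psma7 (2164.3). Among control arrays, CON 2 was lowest for Cox6c (8173.3) and highest for Serpinc1 (16111.4), CON 3 was highest for Apoh (17971.3) and Thrsp (1396.7), and CON 4 was highest for Rpl19 (6684.9) and lowest for Rnf2 (33.8).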

How the results depend on the processing

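The count of 114 calls against CON was 432 with equal medians, 57 with no filter, 143 with the filter at the 60th percentile, 80 with the replicate number as a block and 28 to 112 with 1 array left out. The lowest count, 28, came without CON 4 or without GM 4. It was 84 without both CON 3 and GM 3, a setting added after seeing the data. With the 2 groups fitted alone, which leaves fewer degrees of freedom, it was 4. Against MET, 193 became 0 in that fit (1018 at an unadjusted p of 0.05), 182 with the block and 94 to 226 with 1 array left out. Against GLIP, 0 became 1 with equal medians, 0 with the block and 0 to 2 with 1 array left out. The named lists held 14 calls against CON, 93 with equal medians, 8 with no filter, 2 in the fit of the groups alone and 3 to 18 with 1 array left out. The difference in array medians stayed between -17.83 and -14.48 with 1 array left out. Deviations from the group mean correlated by -0.00699, -0.12, -0.129 and -0.0308 between same-numbered GM and CON arrays, so no shared positive deviation was seen. These values do not settle whether equal numbers mark paired mice.

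Signs turned in values not called with all arrays. Lcn2 ran from -0.134 (without GM 3) to 1.44 with 1 array left out, Mt2 from -0.293 (without GM 3) to 0.53, Pck1 from -0.0177 (without CON 3) to 0.103 and G6pc from -0.113 (without GM 1) to 0.333. Without CON 3 and GM 3 together, Lcn2 was -0.291, Mt2 -0.32, Serpina3n -0.00825 and Pck1 -0.0458. After quantile normalization Pck1 was -0.00433, Fbp1 -0.00308 and Apoc1 -0.00807. The complex I median was 0.132 with equal medians, 0.0503 without CON 3 and GM 3 and -0.0288 to 0.0411 with 1 array left out. The median of complexes II to V was 0.132, 0.0857 and -0.0607 to 0.0493. The cause of these shifts was not tested. The number of arrays limits the precision.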
